A study of Sus scrofa with 9 samples.

Results

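BMP4, BMPR1A and MSX1 are 3 genes of a signalling route that runs between the tissues of the tooth germ. Their probe sets were followed over 3 stages of molar development in the miniature pig. Every probe set of the porcine array whose only platform gene symbol was BMP4, BMPR1A or MSX1 was taken, which gave 4 probe sets of the 23999 tested, for 3 of the 6765 genes with a symbol. BMP4 (Entrez gene 100113425) and BMPR1A (Entrez gene 100169652) had 1 probe set each, and MSX1 (Entrez gene 100302364) had 2, here called bright and dim by their mean signal. The RNA came from Wuzhishan miniature pigs, a small Chinese breed, whose additional molar germs were taken with the attached dental lamina from the mandibles of embryos and fetuses at embryonic days E50, E60 and E70, with no genetic change and no treatment. Each stage had 3 arrays. At E50 the first additional molar (M1) was at the cap stage and the second (M2) had not begun, M2 appeared at E60 beside a bell-stage M1, and by E70 M1 had reached the late bell with little further growth of M2. The stages are those of the labels, and 1 supplementary table of the study heads the first stage with a different day. The study used E70 as its reference stage.

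Bone morphogenetic proteins (BMPs) are secreted ligands that bind pairs of type I and type II receptor kinases. The type I receptor then phosphorylates SMAD proteins, which enter the nucleus with SMAD4 and switch on response genes. BMP4 is 1 of these ligands, BMPR1A is a type I receptor for it, and MSX1 is a homeobox transcription factor. In the mouse tooth germ, Bmp4 and Msx1 depend on each other in the dental mesenchyme, and loss of mouse Msx1 stops tooth development at the bud stage.

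The study also measured BMP4 and MSX1 transcripts by quantitative RT-PCR. The primer pairs from its primer list are shown because they name the pig transcript stretches that were amplified for these members, and the last 5 bases, where the polymerase starts to extend, are in capitals. The primers were 18 to 23 bases long with 47.6% to 55.6% G and C.
BMP4 forward primer: aagcgtagccccaAGCAT
BMP4 reverse primer: cactgaagtccacatagaGCGAG
MSX1 forward primer: tgagaacggtcggagaAAAGA
MSX1 reverse primer: acctacctttgtcacgcATCTG

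Each value is a MAS 5.0 signal, the 1-colour intensity that the Affymetrix software computes from the several short oligonucleotide pairs that make up a probe set, on a linear scale. Differing probe sets bind with differing strength, so a signal was compared across arrays for 1 probe set and no gene was ranked above another by it. Changes are differences of log2 signal, so that 1 means a doubling. They were tested with limma over all 9 arrays and all probe sets, and a change was called at an adjusted p under 0.05 (Benjamini-Hochberg). Germs of 1 litter were pooled, and nothing states that the 3 arrays of a stage were separate litters, so the p-values measure the spread between these arrays.

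The 3 E50 arrays stood apart from the other 6, and every change against E50 is to be read beside the following values. The ratio of the 3′ to the 5′ probe set of the control transcript EF1A was 49.3 to 55.8 (E50), 1.42 to 1.56 (E60) and 1.35 to 1.47 (E70). The 95th percentile of 23 control probe sets with no pig target, used here as each array's background, was 77.7 to 379 (E50), 37.9 to 54.4 (E60) and 38.1 to 55.8 (E70). An E50 array correlated with the other E50 arrays at a mean r of 0.609 to 0.648 over probe sets, against 0.903 to 0.909 within E60 and 0.906 to 0.916 within E70. The part of these differences in the changes against E50 was not tested, and the step E70 minus E60 does not use the E50 levels.

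BMP4, the ligand, was highest at E70, with most of its increase in the last step. BMP4 gave signals of 749, 820.5 and 770.3 at E50, then 882, 1292 and 1083 at E60, then 4749, 3417 and 3119.8 at E70. The 3 stages did not overlap, and the lowest E70 array was above the highest E60 array by a wide gap, while the lowest E60 array lay close to the highest E50 array. BMP4 was above background on all 9 arrays, by 2.03 to 10.6 (E50), 19.9 to 24.5 (E60) and 65.0 to 89.6 times (E70).

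BMP4 rose 3.45-fold at E70 against E60 (95% interval 2.27 to 5.24), a log2 change of 1.79 (SE 0.26, limma adjusted p = 0.0447, higher on 3 of 3 E70 arrays than on any E60 array). It was the 1 member probe set called higher in that step, in which 0.0833% of all probe sets were called higher, and none of the 4 was called lower, with 0.338% of all probe sets called lower and 0 of the 4 members lower at an unadjusted p under 0.05. By size, the BMP4 change was the 764th largest rise of the 23999 in that step. The arrays of 28.2% of all probe sets did not overlap between E60 and E70. The call was near the threshold and depended on scaling: with quantile normalization the log2 change was 1.81 (limma adjusted p = 0.0572), and of the 9 fits that left out 1 array, only the one without E50 replicate 3 kept the call (log2 changes 1.61 to 1.92, highest limma adjusted p = 0.208). With the 6 arrays of E60 and E70 fitted alone, the same 1.79 had a limma adjusted p of 0.0419.

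Over the whole span BMP4 rose 4.75-fold at E70 against E50 (95% interval 3.13 to 7.21), a log2 change of 2.25 (SE 0.26, limma adjusted p = 0.00196). This call held under all 19 alternative settings, with log2 changes between 2.07 and 2.96. For E60 against E50 the log2 change was 0.46 (95% interval -0.14 to 1.06, limma adjusted p = 0.250), and it passed only when each array was centred on its median, at 1.24 (limma adjusted p = 0.0221). In the moderated F test over the 3 stages BMP4 had F = 42.3 (limma adjusted p = 0.00374). Of all probe sets, 587 (2.45%) went up at each stage with no overlap of arrays as BMP4 did.

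**Figure D1:**
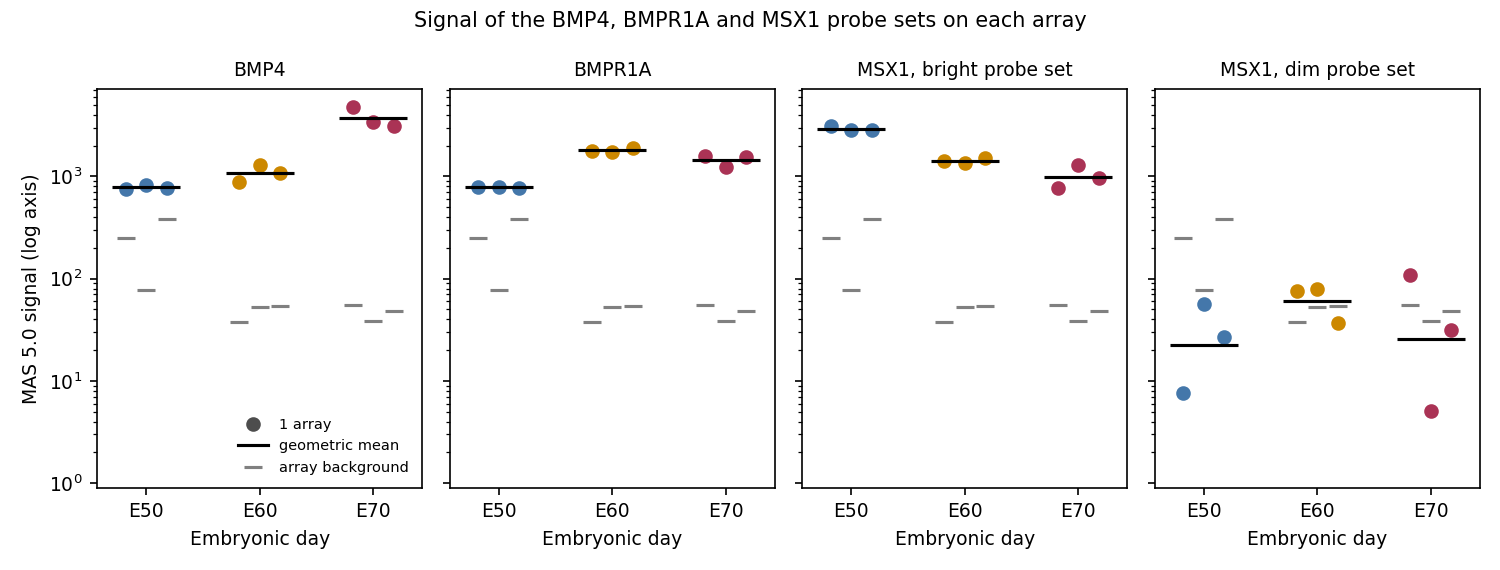
MAS 5.0 signal (log axis) of the BMP4, BMPR1A and 2 MSX1 probe sets on each of the 9 arrays, by embryonic day, with 1 point per array, a black line at the geometric mean of 3 arrays and a grey dash at each array's background. BMP4 lies between 3119.8 and 4749 at E70, BMPR1A is lowest at E50, the bright MSX1 probe set is highest at E50, and the dim MSX1 probe set scatters around the background.

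BMPR1A, the type I receptor, was higher at E60 and E70 than at E50, with its highest signals at E60. BMPR1A had signals of 786, 785 and 776 at E50, of 1783, 1740.2 and 1897 at E60, and of 1576, 1243 and 1530.4 at E70. All 3 stages were apart from each other, E60 on top, and the E50 arrays lay within a few percent of one another while E70 replicate 2 was the lowest of its stage. BMPR1A was above background on all 9 arrays, by 2.05 to 10.1 (E50), 33.0 to 47.0 (E60) and 28.2 to 32.6 times (E70).

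BMPR1A rose 2.31-fold at E60 against E50 (95% interval 1.66 to 3.20), a log2 change of 1.21 (SE 0.20, limma adjusted p = 0.00916, higher on 3 of 3 E60 arrays). It was the 1 member probe set called higher in this step, beside 7.85% of all probe sets, and the call held under all 19 alternatives, with log2 changes of 1.07 to 1.98. The arrays of 39.2% of all probe sets did not overlap between E50 and E60, and those of 37.4% between E50 and E70. At E70 against E50 BMPR1A rose 1.84-fold (95% interval 1.33 to 2.56), a log2 change of 0.88 (SE 0.20, limma adjusted p = 0.0236). BMP4 and BMPR1A were thus the 2 member probe sets called higher at E70 against E50, where 8.16% of all probe sets were. The BMPR1A call over that span was lost when the 6 arrays of both stages were fitted alone (limma adjusted p = 0.109) and when 1 of the 3 E60 arrays, E70 replicate 1 or E70 replicate 3 was left out (highest limma adjusted p = 0.0865).

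Between the later stages BMPR1A had a log2 change of -0.32 at E70 against E60 (95% interval -0.80 to 0.15, limma adjusted p = 0.869), so a fall of up to 0.80 or a rise of up to 0.15 on the log2 scale fits within the interval. The 3 E70 arrays were all below the 3 E60 arrays, as was so for arrays of 28.2% of all probe sets in one direction or the other. The moderated F over the 3 stages was 19.0 (limma adjusted p = 0.0150).

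MSX1, the homeobox factor, went the other way on its bright probe set, with its highest signal at E50 and its lowest at E70. The bright MSX1 probe set had signals of 3102, 2814 and 2818 at E50, of 1407, 1357 and 1510.0 at E60, and of 764, 1299 and 963 at E70. The stages did not overlap, although E70 replicate 2 came close to the lowest E60 array. The E70 arrays spread more, with an SD of 0.39 on the log2 scale, against 0.08 at E60 and 0.08 at E50. This probe set was above background on all 9 arrays, by 7.44 to 36.2 (E50), 25.7 to 37.1 (E60) and 13.7 to 34.1 times (E70).

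The bright MSX1 probe set fell 2.04-fold at E60 against E50, a log2 change of -1.03 (95% interval -1.62 to -0.45, SE 0.25, limma adjusted p = 0.0295, lower on 3 of 3 E60 arrays). It was the 1 member probe set called lower in that step, as were 10.6% of all probe sets. The arrays of 39.2% of all probe sets did not overlap between these stages. The direction was the same under the 3 other scalings, but with median centring the log2 change was -0.26 and the call was lost (limma adjusted p = 0.535). It was also lost without any 1 of the 3 E60 arrays or E70 replicate 3 (highest limma adjusted p = 0.101).

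Across the span the bright MSX1 probe set fell 2.95-fold at E70 against E50, a log2 change of -1.56 (95% interval -2.15 to -0.98, limma adjusted p = 0.00676). Here too it was the 1 member probe set called lower, with 10.6% of all probe sets lower, and the call was lost in 1 of the 19 alternatives, median centring (-0.85, limma adjusted p = 0.0630). For E70 against E60 the log2 change was -0.53 (95% interval -1.12 to 0.05, limma adjusted p = 0.714). The moderated F was 20.1 (limma adjusted p = 0.0137), and 597 probe sets (2.49%) went down at each stage with no overlap, as this one did. Over the 4 member probe sets, 3 passed the F test, beside 17.7% of all probe sets.

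The dim MSX1 probe set was mostly at background. It had signals of 7.53, 56.7 and 27.1 at E50, of 75.5, 78.6 and 36.9 at E60, and of 108, 5.04 and 31.3 at E70. All 3 stages overlapped, and within E70 the highest array was far above the lowest. It was above background on 0 of 3 arrays at E50, 2 of 3 at E60 and 1 of 3 at E70, so at E50 it was not well above background and has only a bound there. The E50 backgrounds that set this bound were 248, 77.7 and 379. All 3 E60 signals were below the first and the third of them. Fitted log2 changes of the dim probe set are shown further on as a description, and no fold change is read from them.

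No comparison of stages was called for the dim probe set, and its F was 0.865 (limma adjusted p = 0.621). Both MSX1 probe sets were also compared on each array, as the log2 signal of the dim one minus that of the bright one, in which a factor that multiplies a whole array cancels. The difference itself depends on how each probe set binds, so only its change between stages was read. It averaged -7.01 at E50 (-8.69 to -5.63), -4.56 at E60 (-5.35 to -4.11) and -5.26 at E70 (-8.01 to -2.83). The E60 arrays were all above the E50 arrays, while E70 overlapped both.

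An exact permutation test of this difference over the 3 stages, the 1 pair of probe sets tested, gave p = 0.311 (280 splits of the arrays, smallest possible p 0.00357). The two-sided exact permutation p was 0.1 for E60 against E50, 0.8 for E70 against E60 and 0.4 for E70 against E50, where 0.1 is the smallest that 3 arrays against 3 allow. With the dim probe set above background on only 3 of 9 arrays, the comparison cannot show whether both probe sets change alike. BMP4 and BMPR1A had no other probe set to compare.

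**Figure D2:**
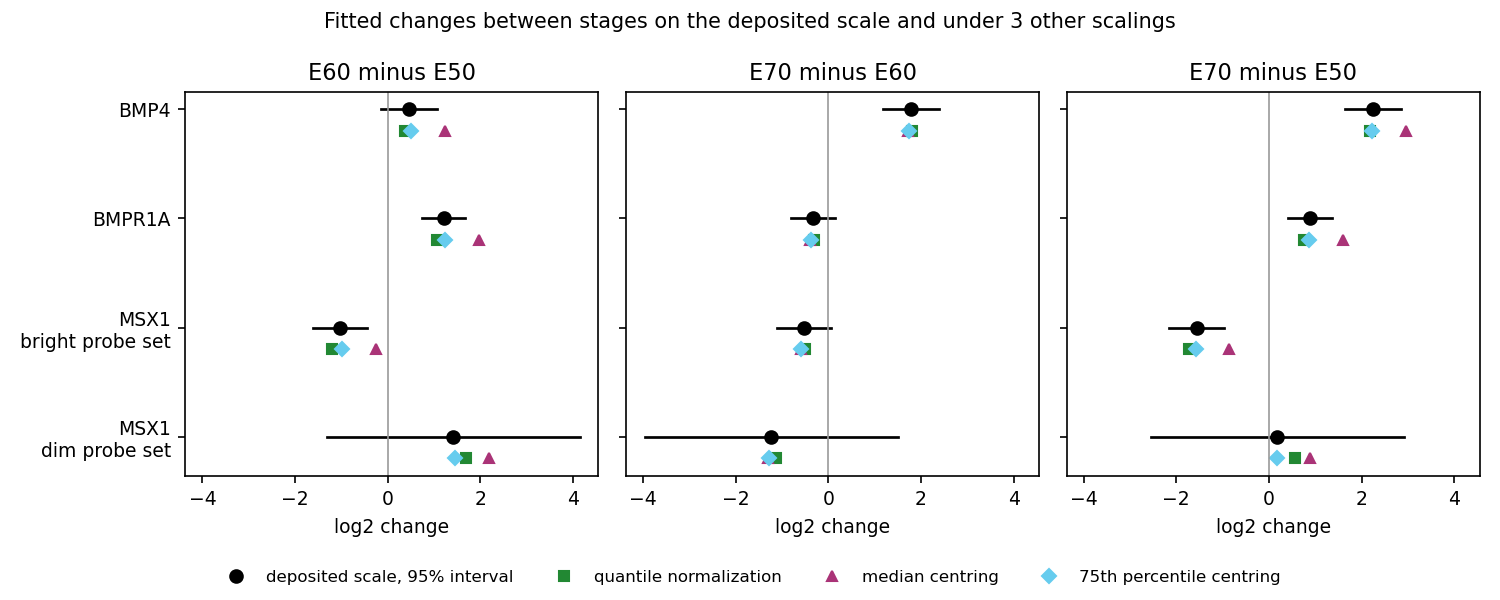
Fitted log2 change of each member probe set in the 3 comparisons of stages (n = 3 arrays each), with its 95% interval on the deposited scale (black) and its value under 3 other scalings of the arrays. Median centring raises all 4 changes against E50, the other scalings move them less, and the dim MSX1 probe set, at background on most arrays, has an interval that spans 0 in each panel.

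Since centring shifts all probe sets of an array alike, the member changes were also set against the median of all. That median was -0.18 for E60 minus E50, 0.05 for E70 minus E60 and -0.11 for E70 minus E50 on the deposited scale, and 0.60, -0.01 and 0.60 with median centring. Of all probe sets called at E60 against E50, 42.5% were higher on the deposited scale and 83.7% with median centring, and at E70 against E50 these shares were 43.4% and 80.6%. Relative to the deposited medians, BMP4 changed by 0.64, 1.73 and 2.36 in these 3 comparisons. BMPR1A changed by 1.38, -0.38 and 0.99 relative to them, and the bright MSX1 probe set by -0.86, -0.59 and -1.45. The direction of all 3 was kept in each comparison under all 19 alternatives, the 3 other scalings included.

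Differences between members on the same array, in which a factor that multiplies the whole array cancels, were set to a mean of 0 at E50. BMP4 minus the bright MSX1 probe set was 1.49 ± 0.31 at E60 and 3.81 ± 0.65 at E70 (log2, SD, n = 3). BMPR1A minus MSX1 was 2.24 ± 0.02 at E60 and 2.44 ± 0.56 at E70. BMP4 minus BMPR1A was -0.75 ± 0.30 at E60 and 1.36 ± 0.29 at E70, negative on all 3 E60 arrays and positive on all 3 E70 arrays. On this scale the ligand gained on MSX1 at both steps on every array, while the receptor gained on MSX1 at E60 and spread over 1.83 to 2.94 at E70. The gains at E60 are set against the E50 arrays, with their EF1A ratio of 49.3 to 55.8. An effect that differs between probe sets does not cancel here, and its part was not tested.

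**Figure D3:**
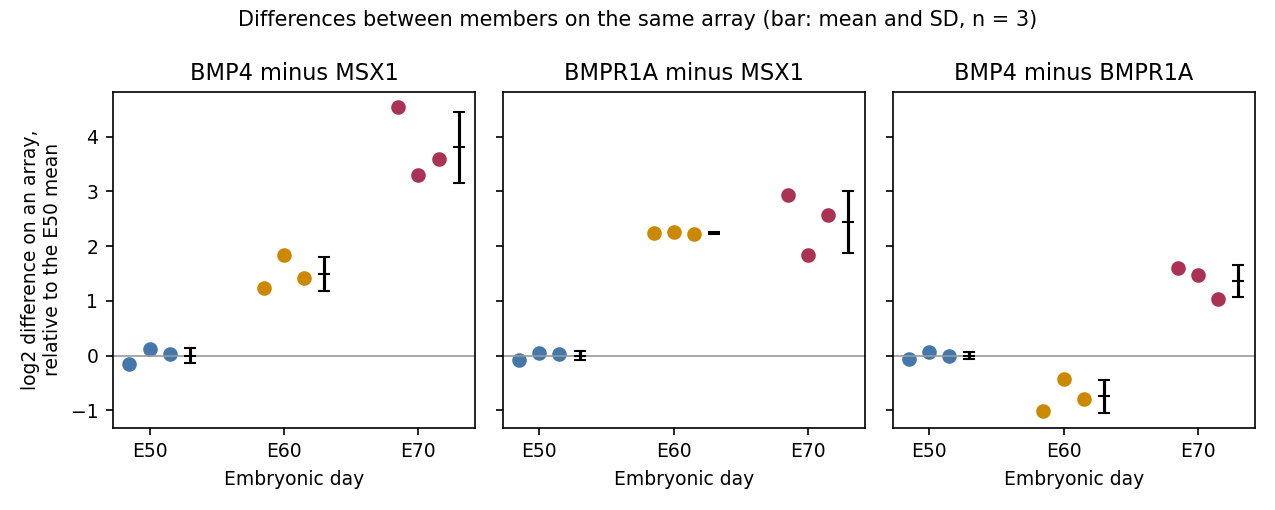
Log2 difference between 2 members on the same array, relative to the mean of the E50 arrays, by embryonic day, with 1 point per array and the mean and SD of 3 arrays at the side (MSX1 is its bright probe set). BMP4 minus MSX1 reaches 3.29 to 4.54 at E70, BMPR1A minus MSX1 is 2.22 to 2.25 at E60, and BMP4 minus BMPR1A is below 0 at E60 and above 0 at E70.

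The other genes of the route were taken from 7 lists of ligands, receptors, antagonists, SMADs with their regulators, response genes, tooth homeobox genes and genes linked to the balance between molars. Of the 106 genes listed, 35 had a probe set with 1 symbol, members included, and each was taken at its brightest probe set. At E60 against E50, 1 of the 35 was called higher, BMPR1A, and 3 were called lower, MSX1, ENG and SP7, the last at a probe set mostly at background, beside 7.2% of all genes higher and 13.7% lower. At E70 against E60, 1 was called higher, BMP4, and none lower (2 lower at an unadjusted p under 0.05 in limma), beside 0.118% and 0.606% of all genes. At E70 against E50, 5 were called higher, BMP4, BMPR1A, ID1, DLX5 and LEF1, and 2 lower, MSX1 and ENG, beside 7.33% and 14.3%. ENG was near background at E60 and E70. The median log2 change of the 35 was 0.16, 0.13 and 0.16 in these comparisons, against -0.18, 0.05 and -0.11 over all genes. These counts moved with the fit: median centring gave 13 higher and 1 lower at E60 against E50, and 11 higher and 1 lower at E70 against E50.

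Among the 4 measured ligands of 15, BMP4 was the 1 that passed. BMP7, a ligand of the tooth epithelium and mesenchyme in the mouse, had geometric mean signals of 456, 370.5 and 696 at E50, E60 and E70, and its log2 change was 0.91 for E70 minus E60 (limma adjusted p = 0.379). BMP1, which in spite of its name is a protease that processes procollagen, had log2 changes of -0.57 for E60 minus E50 and 0.51 for E70 minus E60, and neither passed, though its dimmer probe set fell by 1.58 at E60 against E50 (limma adjusted p = 0.0448). BMP15, an ovarian ligand, was above background on 1 of 9 arrays.

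Of 6 measured receptors, BMPR1A was the 1 called higher. At an unadjusted p under 0.05 in limma, 2 receptors were higher and 1 lower at E70 against E50. ACVR1, another type I receptor for BMPs, had geometric mean signals of 1584, 2326 and 2392 at the 3 stages, with log2 changes of 0.55 for E60 minus E50 (limma adjusted p = 0.161) and 0.04 for E70 minus E60. BMPR1B was above background on 6 of 9 arrays, but on only 1 at E50, where its signals ran from 5.57 to 601. Its log2 changes of 0.16 and -0.21 (SE 1.46) are therefore not well measured. Its dimmer probe sets had -4.12 and -1.53 for E60 minus E50, neither of them called. The type II receptors ACVR2A and ACVR2B were above background on 5 and 2 of 9 arrays. ENG, endoglin, a co-receptor best known from vessel endothelium, fell at E60 against E50, by 3.20 on the log2 scale (limma adjusted p = 0.00576). Its signals were 349 to 857 at E50 but 48.4 to 69.4 at E60, close to the array backgrounds of 37.9 to 54.4. At E70 ENG was above background on 2 of 3 arrays, so the size of its fall is not well measured.

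At their brightest probe sets, none of the 4 measured antagonists passed in any comparison by limma. Nor did any of the 5 measured genes of the list of SMADs and their regulators (SMAD1, SMAD4, TOB1, TAB1 and MAP3K7). At an unadjusted p under 0.05 in limma, 1 antagonist was higher and 1 lower against E50, and 1 SMAD list gene was higher in each comparison against E50. FST, follistatin, which binds activins and some BMPs, had log2 changes of 0.24 and 0.03 for E60 minus E50 and E70 minus E60, and FSTL3, its relative, of -0.95 and 0.20. A dimmer FSTL3 probe set was called lower at E60 against E50 (limma adjusted p = 0.0483). Its mean log2 signal of 3.26 over the 9 arrays was below every array's background, so that change is not well measured. CRIM1, a membrane protein that binds BMPs, had 0.84 for E70 minus E50 (limma adjusted p = 0.0724), and BAMBI, a decoy receptor, 0.68 for E60 minus E50 and -0.55 for E70 minus E60. SMAD1, which the BMP type I receptors phosphorylate, had 0.74 for E70 minus E50 (limma adjusted p = 0.0886), and SMAD4, the shared partner, -0.15.

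Of 11 measured response genes, ID1, DLX5 and LEF1 rose at E70 against E50 while MSX1 fell. ID1, an inhibitor of helix-loop-helix factors and a direct BMP target in many cells, had signals of 2936 to 3376 (E50), 4588 to 5175 (E60) and 8414 to 12123 (E70), 3 ranges that did not overlap, and rose by 1.66 on the log2 scale over the span (limma adjusted p = 0.00360). DLX5, a homeobox gene of bone and tooth, had geometric means of 3985, 3508 and 7320.5 and rose by 0.88 over the span (limma adjusted p = 0.0341). LEF1, a nuclear partner of β-catenin in WNT signalling, had 3575, 4609 and 6486 and rose by 0.86 (limma adjusted p = 0.0305). ID3 had a log2 change of 0.31 over the span, which did not pass. SP7, an osteoblast factor, was called lower at E60 against E50 (limma adjusted p = 0.0418) at a probe set above background on 2 of 9 arrays, so its change is not measured, and its other probe set was not called.

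Of the 3 measured tooth homeobox genes of 20, MSX1 and DLX5 passed as given, and PRRX1, a gene of the mesenchyme, had -0.87 for E70 minus E60 (limma adjusted p = 0.261).

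Among 8 measured genes tied to the balance between successive molars, BMP4 and MSX1 were the 2 that passed in any comparison. INHBA, the activin A subunit, had log2 changes of -0.12, 0.13 and 0.01, and TFAP2B 0.32, -0.64 and -0.32. NFKBIA, an inhibitor of NF-κB, had -0.74, 0.21 and -0.53. WNT10B was above background on 1 of 9 arrays, and no change is given for it.

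**Figure D4:**
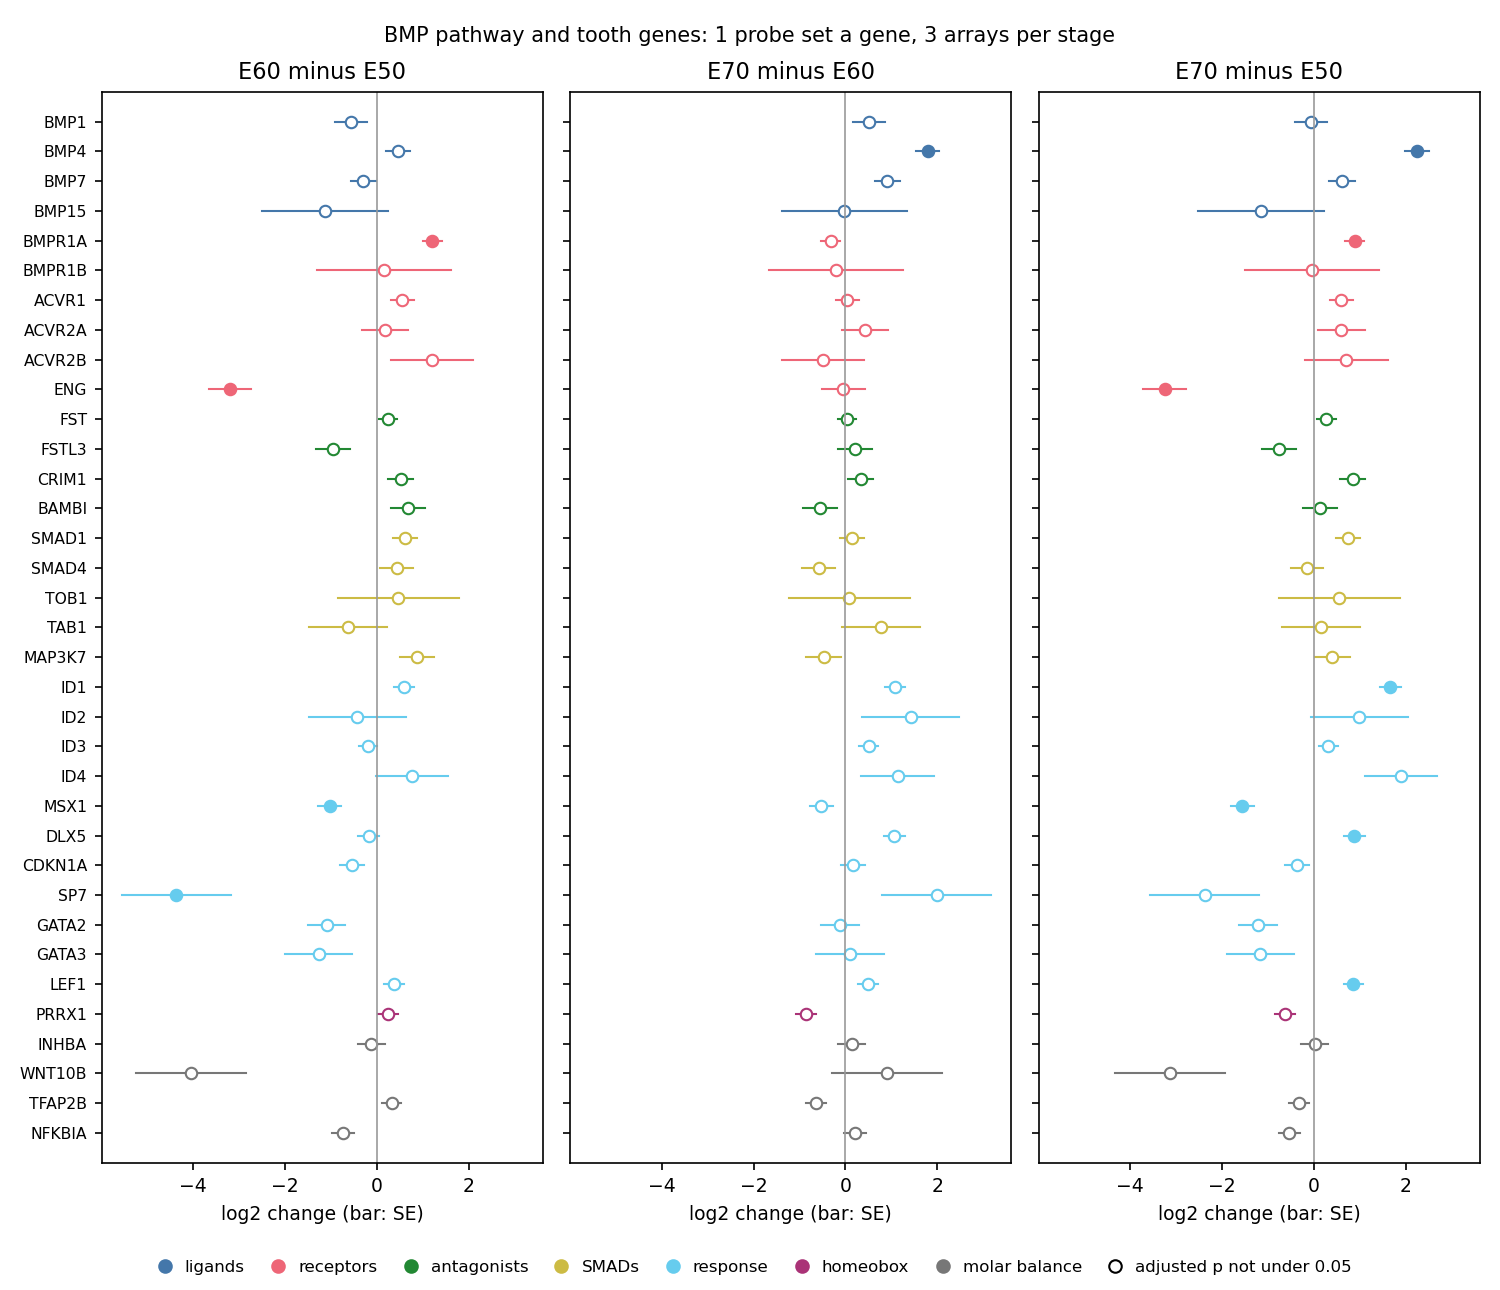
Log2 change of the 35 measured genes of 7 lists, 1 probe set a gene, with its standard error, for 3 comparisons of stages (3 arrays each), filled where the adjusted p is under 0.05 and coloured by the first list that holds the gene. BMP4 is the 1 filled point for E70 minus E60, and at E70 minus E50 the filled points on the right are BMP4, BMPR1A, ID1, DLX5 and LEF1.

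In whole germs, fewer cells of a type and less RNA per cell cannot be told apart, and marker genes of several cell types moved over the same stages as the members. The summed signal of the 5 measured dental epithelium markers of 14 was 1940 to 2603 (E50), 2136 to 2418 (E60) and 5072 to 5807 (E70). CDH1 and EPCAM rose at E70 against E50, and of the enamel matrix genes AMELX was above background on 1, 2 and 3 of the 3 arrays at the stages in order, AMBN on 1, 1 and 3, and ENAM on 1 at each. The 6 measured mesenchyme markers of 17 summed to 118315 to 130575 (E50), 80108 to 83124 (E60) and 51034 to 88685 (E70). This sum was nearly all VIM, which fell at both later stages against E50. POSTN rose at E60 against E50 by 2.05 on the log2 scale and fell by 2.11 at E70 against E60, COL1A2 had 0.69 and -1.59 in these steps, and DSPP was above background on 2 of 9 arrays. Thus defining markers of both germ tissues were measured.

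Markers of bone cells, skeletal muscle, endothelium, and blood and immune cells were measured too. The 7 measured bone markers of 8 summed to 46814 to 57493 (E50), 58155 to 62224 (E60) and 10343 to 11132 (E70) and were mostly SPP1. SPP1 and IBSP fell at E70 against E60, while ALPL had signals of 1255 to 1779 at E70, against 621 to 807 at E60. DMP1 was called lower at E70 against E50. It was above background on 2, 2 and 0 of the 3 arrays at the stages in order, so its E70 level is only a bound. Its other probe set was not called. The 8 measured skeletal muscle markers of 12 summed to 5576 to 8033 (E50), 1655 to 1906 (E60) and 429 to 508 (E70), a downward order that the bright MSX1 probe set shared. None of the 8 was called higher. MYL1 and MYLPF were above background on all 9 arrays and called lower in each comparison. Their log2 changes were -1.66 and -2.49 for E60 minus E50, and -2.42 and -2.47 for E70 minus E60. TNNC2, also above background on all 9, was called lower at E60 and at E70 against E50, with -1.42 and -3.17. TNNT3 and DES were called lower against E50 but were above background on 1 E50 array each, so their changes are not well measured. The 6 endothelium markers of 7 summed to 3451 to 4029, 3418 to 3908 and 1953 to 2398 at the 3 stages, and the 5 blood and immune markers of 9 to 3045 to 4755, 3037 to 3419 and 2758 to 4439. Within the last list HBB rose at E60 and E70 against E50, with log2 changes of 1.59 and 2.07. AIF1 fell at both, with -2.31 and -3.01, and TYROBP fell at E70 against E50, with -2.91. C1QA was called higher at both later stages against E50. It was above background on 0 of the 3 E50 arrays, so this change is not measured. In the endothelium list TEK was the 1 gene called, lower at E70 against E50 with a log2 change of -1.73 (limma adjusted p = 0.00328). MYOD1, MYH2 and PTPRC were above background on none of the 9 arrays. MYH2 was called lower at E70 against E50, but that change is therefore not measured. The part of these tissues in the changes of BMP4, BMPR1A and MSX1 was not tested.

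The genes whose pattern was most like each member were found by the Pearson correlation of log2 signal over the 9 arrays, which fall into 3 stages, among 4662 genes at or above the median level. For BMP4 they were HAS3, a hyaluronan synthase (r = 0.978), TUBB, a β-tubulin (r = 0.978), and DPT, dermatopontin, a matrix protein (r = 0.971). HAS3 had geometric mean signals of 952, 1665 and 4725 at the 3 stages, and 9 genes in all had an r over 0.95. For BMPR1A they were EIF3E, a translation factor subunit (r = 0.984), SMARCA1, a chromatin remodeller (r = 0.983), and DHX15, an RNA helicase (r = 0.983), with 56 genes over 0.95. For the bright MSX1 probe set they were ARL3, a small GTPase (r = 0.988), NDUFB5, a subunit of respiratory complex I (r = 0.986), and STX5, a Golgi syntaxin (r = 0.985), with 48 genes over 0.95. The dim MSX1 probe set had KPNA2 (r = 0.928), RGS4 (r = 0.866) and HIGD1A (r = 0.860) at its head and no gene over 0.95. Over the E60 and E70 arrays alone HAS3 was still the 8th most like BMP4 (r = 0.992), whereas EIF3E was 135th for BMPR1A and ARL3 was 20th for MSX1.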

How the data were processed

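RNA of additional molar germs from 9 samples, 3 at each of 3 stages given by the labels, was biotin-labelled and measured on Affymetrix Porcine Genome Arrays, 1 sample per array, and every array was used. The authors computed intensity values per probe set with the MAS 5.0 algorithm in GeneSpring and deposited them on a linear scale, and the labels name MAS5 with no version. The mean signal with 2% of probe sets trimmed at each end was 500.1 on every array. Detection calls were not used here. Arrays have no read depth, so their number and the signal over background limit the precision.

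Array controls (124 of 24123 probe sets) were left out of the tests, signals under 1 (900 values) were set to 1, and log2 was taken with no further normalization. Stage means of all 9 arrays were fitted with limma 3.58.1 in R 4.3.3 (lmFit, eBayes, prior df 1.47, Benjamini-Hochberg over 23999 probe sets), the nearest to the shared-variance F test of the methods. The scripts were tested on simulated data. Intervals are 95%, from the fit. Symbols came from the platform annotation: 10069 probe sets had 1, 198 several and 13732 none, and all 4 member probe sets matched the pig RefSeq gene table by Entrez number. A gene with several probe sets stood in the lists at the one with the highest mean.

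The genes named are every member probe set, the called genes with the largest change whose arrays did not overlap (up to 4 a list and comparison), the measured ligands, receptors, antagonists and molar balance genes, and the 3 genes most like each member. SMAD1, SMAD4, ID3, PRRX1 and the marker genes were added after their values were seen. The members and lists were chosen with earlier results of these data known. Alternatives were 3 other scalings, floors of 16 and 64, a filter on background (17101 probe sets kept), the 2 stages alone, an intensity trend, array weights, the replicate number as a block and leaving out each array. No 2 arrays held the same values.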

Additional observations from a re-analysis of the deposited data

How the results depend on the processing

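BMP4 at E70 against E50 and BMPR1A at E60 against E50 kept their direction and call under all 19 alternatives. For BMP4 at E60 against E50, median centring gave 1.24 (leave-one-out 0.33 to 0.60). For BMP4 at E70 against E60 the call was lost with quantile normalization (1.81), median centring (1.72), 75th percentile centring (1.73) and the replicate block (1.79, limma adjusted p = 0.262), and leaving out 1 array gave 1.61 to 1.92, with the call kept only without E50 replicate 3 and a highest limma adjusted p of 0.208. For BMPR1A at E70 against E50 it was lost with quantile normalization (0.76), the 2 stages alone (0.88), array weights (0.89) and the block (0.88), and leaving out 1 array gave 0.82 to 0.99. The adjusted p of its F was 0.0559 with array weights, 0.0582 with the block and 0.0163 to 0.0535 over arrays left out (limma). For the bright MSX1 probe set at E60 against E50 the call was lost with median centring (-0.26), the 2 stages alone (-1.03), array weights (-1.04) and the block (-1.03), and leaving out 1 array gave -1.07 to -0.98. At E70 against E50 median centring gave -0.85, and the adjusted p of the F was 0.124 with median centring, 0.0567 with array weights and 0.0541 with the block (limma). The dim MSX1 probe set turned direction at E70 against E60 with a floor of 64 (0.07) and at E70 against E50 when E50 replicate 1 or E70 replicate 1 was left out (-0.61 and -0.85, leave-one-out range -0.85 to 1.36), with no call. The exact p of the MSX1 pair was 0.0107 with a floor of 64, which sets the dim probe set to 1 value on 6 of 9 arrays, and 0.0714 to 0.611 over arrays left out. The cause of these shifts was not tested.

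Of the member probe sets, the count called higher at E60 against E50 was 2 with median centring, and the count called lower was 0 with median centring, the 2 stages alone, array weights, the block and 4 arrays left out, and 1 otherwise. At E70 against E60 the count higher was 0 under the 3 other scalings and the block, and 0 to 1 over arrays left out. At E70 against E50 the count higher was 1 with quantile normalization, the 2 stages alone, array weights and the block, and 1 to 2 over arrays left out, and the count lower was 0 with median centring. Of the 35 genes of the lists at E60 against E50, the count higher was 13 with median centring, 2 with a floor of 64 and 3 with an intensity trend, and the count lower was 1 with median centring, the 2 stages alone and array weights, 5 with the trend and 1 to 5 over arrays left out. At E70 against E60 the count higher was 0 under the other scalings and the block, 3 with a floor of 64, the trend and array weights and 0 to 1 over arrays left out, and the count lower was 2, 1 and 2 with that floor, the trend and the weights. At E70 against E50 the count higher was 11 with median centring, 8 with the trend, 2 with the 2 stages alone, the weights and the block and 2 to 6 over arrays left out, and the count lower was 1 with median centring and 2 to 4 over arrays left out.

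Arrays of differing stages shared only a replicate number: the deviations of same-numbered arrays from their stage means correlated at -0.021 to 0.026, an array set against another stage correlated best with its own number in 7 of 18 cases, and the block lost the calls named here and no other call of a member. Over all probe sets the block gave 9 calls for E70 minus E60, against 101 without it, and 2811 and 2944 calls for E60 and E70 against E50, where the fit without it gave 4436 and 4510. The filter on background left out the dim MSX1 probe set, which has no value there, and the 2 stages alone give no F. With 3 arrays a stage, E50 backgrounds up to 379 limit what is measured below that signal.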

Other observations

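At E50, where the arrays differed most from one another, 3 of the 4 member probe sets varied little. Among the probe sets of like mean log2 signal at E50 (within 0.5), the SD of BMPR1A over the 3 arrays was 0.011, lower than for all but 0.120% of them, against a median of 0.332. BMP4 had an SD of 0.068, at the percentile 2.70 (median 0.333), and the bright MSX1 probe set one of 0.081, at the percentile 9.59 (median 0.218). The dim MSX1 probe set had an SD of 1.47 at E50, at the percentile 55.1 (median 1.36). At E60 BMP4 was at the percentile 92.2, and at E70 BMP4 had an SD of 0.319, at the percentile 85.4, BMPR1A one of 0.187, at 47.0, and the bright MSX1 probe set one of 0.385, at 88.9. These spreads were singled out after their values were seen.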
